A study of Homo sapiens with 31 samples.

Results

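EVI1 and CTBP2 binding sites were compared in MUTZ3 cells while 4xPLDLS was being expressed. A site was an interval of overlapping ChIP-seq peaks called in both libraries of a target, and 37657 EVI1 sites and 16021 CTBP2 sites met this rule, 53678 in all. They come from 149871 peaks in the 4 lists of dox-treated cells, out of 533140 peaks in the 13 lists of the series that were analysed. MUTZ3 is an acute myelomonocytic leukemia cell line in which a rearrangement of chromosome 3 drives EVI1 expression. The cells carried pCW-4xPLDLS, a construct that makes a peptide with 4 PLDLS repeats when doxycycline (dox) is added, and were studied as a transduced bulk population, not as a clone. Dox-treated cells were collected at 72 hours, with 2 EVI1 and 2 CTBP2 libraries, and untreated cells with the same construct gave the same numbers. Chromatin was crosslinked with DSG and formaldehyde, and a single input per treatment served both targets. Each target was recovered with its own antibody, so differences between targets in number or height of peaks cannot be told apart from differences in antibody or depth. Dox-treated cells without the peptide were not analysed here, so dox and the peptide cannot be told apart. Nothing in the labels says that replicates were separate cultures, so every spread below may be technical.

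EVI1, a product of the MECOM locus, is a zinc finger transcription factor that is needed for blood stem cells and is expressed at high level in leukemias with rearrangements of that locus. CTBP2 is a corepressor that does not read DNA letters itself. It is held on chromatin by factors with a PLDLS-type motif, among them EVI1 and the ZEB repressors, and it brings histone deacetylases and demethylases to those places. A peptide with PLDLS repeats occupies the groove of CTBP2 that such motifs enter, so the comparison asks where CTBP2 was still called beside EVI1, and where it was called without EVI1, while the competitor was present.

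The sequences below show the 3 kinds of site described in the results, each as the summit base with 50 bases on either side, from the plus strand of hg19. The first 2 are among the 8 strongest EVI1 sites with CTBP2 in both libraries, the next 2 are among the 8 strongest EVI1 sites without CTBP2, and the last 3 are among the 8 strongest CTBP2 sites without EVI1. At EVI1 sites the capitals mark, on either strand, CAGGAAG, the letters of ETS factors, and TGTGGT, the letters of RUNX factors. GATAAG, read by GATA factors and by the first zinc finger group of EVI1, was searched too. It is in none of these windows but is in that of another of the 8 strongest shared sites. At CTBP2 sites without EVI1 they mark CAGGTG on either strand, the letters bound by ZEB and other E-box factors. A match is a run of letters, not a measured binding event.
SLC7A10, chr19:33751757-33751857: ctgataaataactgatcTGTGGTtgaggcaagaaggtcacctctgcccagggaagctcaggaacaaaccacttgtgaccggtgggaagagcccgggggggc
TBC1D5, chr3:18265174-18265274: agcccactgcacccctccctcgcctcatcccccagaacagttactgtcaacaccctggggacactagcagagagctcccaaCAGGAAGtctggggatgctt
NPLOC4, chr17:79612143-79612243: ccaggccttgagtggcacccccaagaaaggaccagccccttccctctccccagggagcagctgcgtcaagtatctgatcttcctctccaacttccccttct
ANGPTL1, chr1:178911911-178912011: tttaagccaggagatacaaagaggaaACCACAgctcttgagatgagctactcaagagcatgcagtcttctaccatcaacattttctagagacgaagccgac
DMRTB1, chr1:54021554-54021654: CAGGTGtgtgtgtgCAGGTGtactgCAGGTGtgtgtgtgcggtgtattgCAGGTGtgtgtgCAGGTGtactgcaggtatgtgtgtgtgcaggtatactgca
PARP12, chr7:139709673-139709773: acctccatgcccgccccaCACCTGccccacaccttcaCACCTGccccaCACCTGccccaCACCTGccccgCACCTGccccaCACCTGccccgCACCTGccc
GIN1, chr5:102447269-102447369: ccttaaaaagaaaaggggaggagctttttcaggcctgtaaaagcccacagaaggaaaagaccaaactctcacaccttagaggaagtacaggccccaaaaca

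On chromosomes 1 to 22, X and Y, the EVI1 lists of dox-treated cells held 52856 peaks in replicate 1 and 46848 in replicate 2. The CTBP2 lists held 24349 and 23630. EVI1 had more peaks in both libraries than CTBP2 in either, by 25862.5 on average. By exact permutation of the 4 libraries (two-sided) p was 0.333. Designs of 2 against 2 allow no smaller value, so no comparison of libraries here could pass a threshold of 0.05. Peaks in both libraries made up 63.5% of 59308 merged EVI1 intervals and 51.1% of 31382 merged CTBP2 intervals. The lists give fold enrichment, which is the signal at a summit over the local background, but no read counts. Library depth is therefore unknown. Intervals given with shares below are 95% Wilson intervals that cover counting error only.

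Most CTBP2 sites lay at EVI1, whereas many EVI1 sites had no CTBP2 peak. Of the CTBP2 sites, 14700 overlapped an EVI1 peak in both libraries, which is 91.8% (91.3 to 92.2). A further 738 (4.61%) overlapped a peak of 1 EVI1 library, and 583 (3.64%, 3.36 to 3.94) overlapped none. Of the EVI1 sites, 14362 overlapped a CTBP2 peak in both libraries, which is 38.1% (37.6 to 38.6). Another 7843 (20.8%) had a CTBP2 peak in 1 library and 15452 (41.0%, 40.5 to 41.5) in neither. The gap between the targets followed the lengths of the lists in part. With every list reduced to as many of its strongest peaks as the shortest list held, 59.9% of EVI1 sites had CTBP2 in both libraries and 71.6% of CTBP2 sites had EVI1 in both, while 20.3% and 14.1% had no partner. Taking the sites from CTBP2 replicate 2 alone raised the share of CTBP2 sites with no EVI1 peak to 13.4%, and taking them from replicate 1 alone raised it to 7.91%. With EVI1 replicate 2 as the only EVI1 list it was 5.53%, and with replicate 1 it was 6.35%.

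The stronger an EVI1 site was, the more often it carried CTBP2. EVI1 sites were ranked by their mean rank of fold enrichment over both EVI1 libraries and divided into 5 groups of equal size. In the strongest group, with a median fold enrichment of 16.3 in replicate 1 and 14.2 in replicate 2, 81.3% (80.4 to 82.2) had CTBP2 in both libraries. The share was 51.7%, 30.7% and 17.8% in the next 3 groups and 9.28% (8.65 to 9.96) in the weakest, whose median fold enrichment was 4.08 and 3.98. Sites with no CTBP2 peak went the other way, from 6.997% of the strongest group to 73.4% of the weakest. CTBP2 sites showed no such gradient. An EVI1 peak in both libraries was found at 95.3% (94.5 to 96.0) of the strongest CTBP2 group, at 90.1% to 90.4% of the 3 middle groups and at 92.8% (91.8 to 93.6) of the weakest. The median fold enrichment of CTBP2 sites with EVI1 was 5.44 and 5.76 in the CTBP2 libraries, and that of CTBP2 sites without EVI1 was 5.07 and 5.82, so fold enrichment did not separate these classes. By other measures the sites without EVI1 were weaker, with a median −log10 q of 5.8 and 7.06 against 8.52 and 8.47 and a median width of 348 bp against 489 bp. The median fold enrichment of EVI1 was 10.4 and 9.29 at sites with CTBP2 and 5.52 and 4.99 at sites without. The median width of these EVI1 sites was 831.5 bp with CTBP2 and 471 bp without, and an overlap of 1 bp counted as a partner. How far width went into the gradient by EVI1 strength was not tested.

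**Figure D1:**
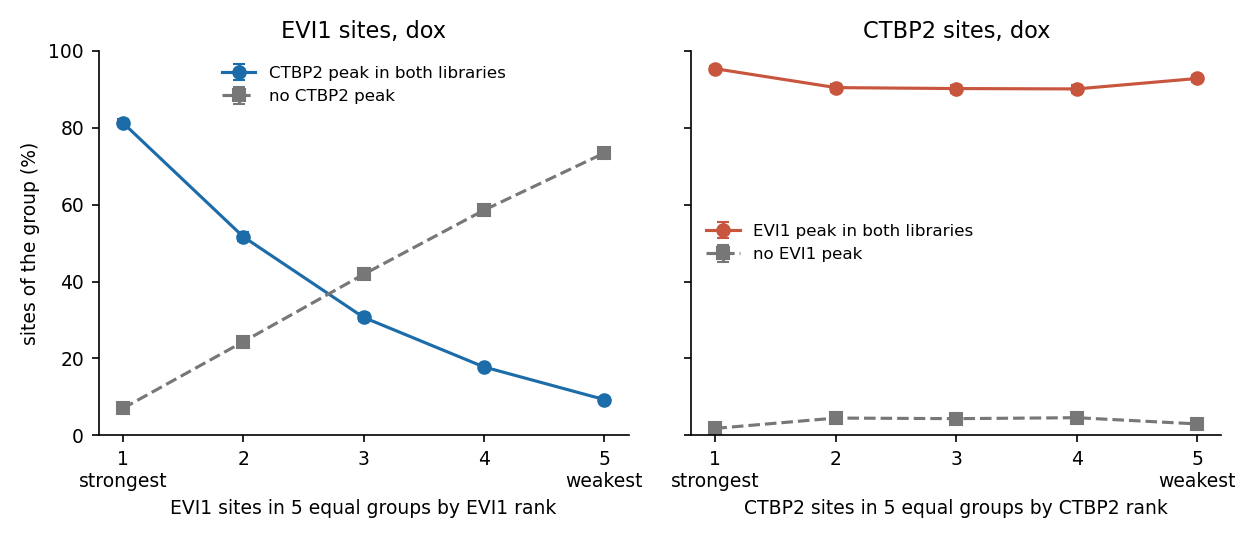
Share of sites with partner peaks (y, percent of the group) in 5 equal groups of EVI1 sites (left) or CTBP2 sites (right) from strongest to weakest (x); circles are sites with partner peaks in both libraries, squares sites with none, bars 95% Wilson intervals. The EVI1 curve falls from 81.3% to 9.28%, while the CTBP2 curve stays between 90.1% and 95.3%.

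At shared sites the heights of both proteins were related but less closely than replicates of a target. Over the 14362 EVI1 sites with CTBP2 in both libraries, Spearman's rho of fold enrichment was 0.843 between the EVI1 replicates and 0.656 between the CTBP2 replicates. The 4 pairs of an EVI1 and a CTBP2 library gave 0.459, 0.389, 0.518 and 0.498, with a mean of 0.466. These values describe sites of libraries that share cells and input, and they carry no p-value. Summits of EVI1 and CTBP2 lay a median of 52 to 60 bp apart in the 4 pairs. The summits of the CTBP2 replicates lay 53 bp apart and those of the EVI1 replicates 35 bp, so the distance between EVI1 and CTBP2 was no larger than the scatter between CTBP2 libraries in 1 of the 4 pairs and exceeded it by at most 7 bp in the others. Between 83.7% and 85.4% of shared sites had summits within 200 bp. The median distance was 40 to 47 bp in the strongest EVI1 group and 69 to 92 bp in the weakest.

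The 8 strongest sites of each kind show the range of values behind these shares. Genes are named by the nearest protein-coding transcription start site (TSS), which need not be the gene a site acts on. The strongest shared site was on chromosome 8, 281 kb upstream of KCNU1, a potassium channel gene, at 36360259 to 36361239. EVI1 fold enrichment there was 104 in replicate 1 and 115 in replicate 2, and that of CTBP2 was 48.0 and 47.8. All 4 libraries placed it among their 4 strongest peaks, and their EVI1 and CTBP2 summits were 2 to 18 bp apart. The next, on chromosome 9 at 132649889 to 132652064, lay in a UTR of FNBP1, which encodes a membrane-bending protein, and its nearest TSS was that of C9orf78, 52.9 kb away. EVI1 fold enrichment was 108 and 103, and that of CTBP2 was 31.6 and 42.0. The site 35.1 kb from SLC7A10, an amino acid transporter gene, lay outside protein-coding genes at 33751029 to 33753249 on chromosome 19, with EVI1 values of 99.6 and 77.3 and CTBP2 values of 30.2 and 28.8. Its window above holds a RUNX match. At an intron of TBC1D5, a gene of vesicle transport, EVI1 values were 79.0 and 80.3 and CTBP2 values 24.1 and 33.2. Of these 8 sites, GPR137 had its summit 29 bp from the TSS, and the others lay from 35.1 to 281 kb away. In all 8, EVI1 fold enrichment (59.5 to 115) was above that of CTBP2 (22.8 to 48.0) in every library.

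EVI1 sites without CTBP2 had lower peaks even at the top of their class. The strongest lay on chromosome 17 at 79611625 to 79612609, in a coding exon annotated to NPLOC4 and TSPAN10, with EVI1 fold enrichment of 44 and 32.4. NPLOC4 encodes a cofactor of the protein segregase that extracts ubiquitinated proteins. In untreated cells a CTBP2 peak was present there in both libraries, at 17.3 and 10.7. The site in an intron of PPARGC1B, nearest to the TSS of the phosphodiesterase gene PDE6A, had EVI1 values of 40.7 and 29.9 with dox and untreated CTBP2 values of 6.17 and 3.87. The site 71.7 kb from ANGPTL1, on chromosome 1 at 178911667 to 178912484, had EVI1 values of 30.5 and 24.3 with dox. Its untreated EVI1 values were 7.19 and 7.25, with untreated CTBP2 values of 4.00 and 7.80. The other 5 sites, nearest to DCLK3, SLX4, SIGLEC15, AATF and LRRTM2, had EVI1 fold enrichment from 19.8 to 30.6 in the dox libraries. All 8 had an untreated CTBP2 peak in at least 1 library, and 7 had it in both, the exception being the site nearest to DCLK3, which had it in replicate 2 only.

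The strongest CTBP2 site without EVI1 lay in an intron of GLIS1, a zinc finger gene, on chromosome 1 at 54021155 to 54022867, 96.5 kb from the TSS of DMRTB1. CTBP2 fold enrichment was 18.8 and 21.0 with dox and 35.6 and 21.6 in untreated cells. Its window holds 5 CAGGTG matches in tandem. The second, in an intron of the thromboxane synthase gene TBXAS1 and nearest to PARP12, had CTBP2 values of 15.4 and 15.0 with dox and 60.5 and 30.3 without. Its window holds 7 matches. The site in an intron of GIN1, at 102447119 to 102447596 on chromosome 5, had values of 11 and 19, no CAGGTG match in its window, and an untreated CTBP2 peak in replicate 2 only, at 16.4. The site nearest to SUCNR1, a succinate receptor gene, was alike in this, with 10.6 and 17.4 with dox and 16.6 in untreated replicate 2. At sites nearest to TFDP1, MRGPRE and MED9, CTBP2 values ran from 11.4 to 21.1 with dox and from 10.4 to 52.1 in untreated cells. Of these 8 sites, 1 lay within 1 kb of a TSS, that of the defensin gene DEFB129, with values of 11.3 and 12.4. At 6 of the 8 an EVI1 peak was called in at least 1 untreated library, with fold enrichment from 3.46 to 5.86.

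CTBP2 sites without EVI1 were rarely at promoters. Of these 583 sites, 19 had a summit within 1 kb of a protein-coding TSS, which is 3.26% (2.1 to 5.03), against 27.7% (26.96 to 28.4) of CTBP2 sites with EVI1. Their median distance to a TSS was 42.4 kb, against 13.8 kb. Their summits were in introns at 48.0% and outside protein-coding genes at 47.3%. The gap of 24.4 percentage points kept its direction under all 9 alternatives tried, from 13.2 points with a fold enrichment of at least 5 to 28.6 with TSSs of all annotated genes. Sites within 1 kb of a TSS made up 27.9% and 22.3% of the peaks of the CTBP2 libraries, so the gap was larger than the difference between those libraries.

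For EVI1 sites the relation to promoters depended on the threshold of the lists. In the full lists, 27.6% (26.9 to 28.4) of EVI1 sites with CTBP2 and 20.2% (19.6 to 20.8) of those without lay within 1 kb of a TSS. With peaks of at least 5-fold enrichment in all 4 lists, these shares were 20.5% and 27.7%, and with a −log10 q of at least 5 they were 25.1% and 26.1%, so the direction reversed. Without CTBP2 replicate 1 the gap of 7.46 points was 1.98, and without EVI1 replicate 2 it was 11.5. Seen from the other side, 42.3% (41.3 to 43.3) of EVI1 sites near a TSS and 36.8% (36.2 to 37.3) of those farther away had CTBP2 in both libraries. At 5-fold the shares were 22.5% (21.4 to 23.6) and 29.8% (29.1 to 30.4), and at the q threshold 28.5% (27.6 to 29.5) and 31.04% (30.4 to 31.7). With lists of equal size the direction was that of the full lists, at 62.8% (61.4 to 64.2) and 58.9% (58.1 to 59.7). Among sites of like EVI1 strength in the full lists, those near a TSS had CTBP2 more often, with 58.9% against 48.8% in the second group and 37.8% against 28.0% in the third. In the strongest group the shares were 83.7% (81.8 to 85.4) and 80.7% (79.6 to 81.6).

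Letters under the summits were counted from 100 bp before to 100 bp after the summit of replicate 1, a measure that the rule for the classes had not used. CTBP2 sites without EVI1 were poorer in G and C, with a median of 46.3%, against 56.2% of CTBP2 sites with EVI1. GGGCGG, the letters of SP factors, occurred in 4.12% (2.78 to 6.05) of windows at CTBP2 sites without EVI1, in 26.3% (25.6 to 26.98) of those with EVI1 and in 46.7% of windows at all protein-coding TSSs. Among sites over 1 kb from a TSS it was 3.90% (2.59 to 5.84) and 16.7% (16.0 to 17.4). CAGGTG occurred in 25.4% (22 to 29.1) of windows without EVI1, in 18.7% (18.1 to 19.3) with EVI1 and in 15.2% at TSSs. The excess was in windows with several copies. Exactly 1 copy was found in 14.1% of windows without EVI1 and 15.6% with EVI1, but 3 or more copies in 9.26% (7.17 to 11.9), or 54 sites, against 0.939% (0.795 to 1.11). In windows of 200 bp on either side the gap in CAGGTG was 2.55 percentage points, against 6.71 here. Around CTBP2 replicate 1 summits without EVI1, the density of CAGGTG was 4.56 and 4.46 matches per kb in the 50 bp bins on either side of the summit and 1.06 and 1.61 at 450 to 500 bp. With EVI1 it was 1.36 and 1.39 at the summit and 1.19 at that distance on both sides. CTBP2 sites with EVI1 in 1 library were between, with 3 or more copies in 7.45% (5.77 to 9.58) of windows. The related letters CAGGTA, added after these values were seen, occurred 3 or more times in 3.95% (2.64 to 5.85) of windows without EVI1 and in 0.129% with EVI1. How reads in such tandem repeats were placed was not tested. CAGCTG, another E-box, was less common without EVI1, at 9.61% (7.47 to 12.3) against 15.4% (14.8 to 16.0).

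At EVI1 sites, ETS letters were more frequent with CTBP2 than without. CAGGAAG occurred in 21.4% (20.7 to 22.1) of windows with CTBP2 and 16.7% (16.1 to 17.3) without, and in 8.75% at TSSs. ETS factors include ERG and FLI1 of blood stem cells. The density rose from 0.355 matches per kb at 450 to 500 bp upstream to 1.43 beside the summit with CTBP2, and from 0.397 to 1.04 without. Most of this difference went with EVI1 strength. In the strongest EVI1 group the shares were 25.1% (24.1 to 26.2) with CTBP2 and 21.1% (17.8 to 24.7) without, and in the other 4 groups they differed by 0.7 to 1.3 percentage points with overlapping intervals. The RUNX letters TGTGGT occurred in 21.2% and 18.1% of windows with and without CTBP2. This order did not hold at like EVI1 strength. In the strongest group the shares were 26.8% (25.7 to 27.9) and 26% (22.4 to 29.9), and in the weakest 16.3% (13.8 to 19.2) and 15.4% (14.5 to 16.4), with overlapping intervals. In the 3 groups between, the letters were less common with CTBP2, at 17.5% (16.4 to 18.8) against 22.4% (20.6 to 24.4), 16.8% (15.3 to 18.4) against 19.9% (18.6 to 21.4), and 16.8% (14.9 to 18.9) against 17.6% (16.5 to 18.7), the last with overlapping intervals. GATAAG occurred in 6.75% (6.35 to 7.18) and 5.28% (4.94 to 5.64). Within strength groups its intervals overlapped in all 5. The share was higher with CTBP2 in the strongest group, at 8.83% against 7.97%, and in the weakest, at 5.58% against 3.996%, but lower in the 3 between, at 5.48% against 6.82%, 5.15% against 6.12% and 4.33% against 5.33%. CCGGAAG, an ETS sequence common in promoters, was more frequent with CTBP2 in each strength group, from 9.01% against 3.98% in the strongest to 7.44% against 4.63% in the weakest. It did so both within 1 kb of a TSS (17.4% against 10.5%) and farther away (5.57% against 2.92%). GAAGATG, of the second zinc finger group of EVI1, was less frequent with CTBP2 in each strength group. In the second group it was 4.06% (3.49 to 4.73) against 7.21% (6.11 to 8.48), while intervals overlapped in the strongest and weakest. CAGCTG was also less frequent in each, from 18.9% against 24.5% in the strongest to 13.02% against 17.6% in the weakest. Within 1 kb of a TSS both were higher with CTBP2 (4.63% against 3.46%, 14.5% against 12.9%), with overlapping intervals.

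In untreated cells with the same construct, most EVI1 sites without CTBP2 overlapped a CTBP2 peak, in lists longer than those of dox-treated cells. Of the 15452, 52.9% (52.1 to 53.7) overlapped a CTBP2 peak in both untreated libraries, 29.7% in 1 and 17.4% (16.8 to 18.0) in neither. EVI1 peaks were called there in both untreated libraries at 74.0%. Untreated CTBP2 peaks at these sites had median ranks of 26936 and 32093, in lists of 61338 and 56017 peaks. The whole CTBP2 lists of dox-treated cells held 24349 and 23630 peaks, fewer than those ranks. Taking the 28246 EVI1 sites of dox-treated cells that had CTBP2 in both untreated libraries, 48.3% (47.7 to 48.9) had it in both dox libraries and 28.9% (28.4 to 29.5) in neither. Sorted by their untreated CTBP2 rank into 5 groups, 89.9% of the strongest and 17.6% of the weakest had CTBP2 in both dox libraries. Median EVI1 fold enrichment with dox fell along the same groups, from 13.6 and 11.6 to 6.09 and 5.48. The shares by untreated CTBP2 rank were not separated from EVI1 strength. How far list length went into the shares with and without CTBP2 under dox was not tested. The CTBP2 sites without EVI1 were more uneven. An untreated CTBP2 peak was found at 88.2% of the 583 in replicate 2 but 39.1% in replicate 1, and an untreated EVI1 peak in both libraries at 11.1% (8.84 to 14) and in neither at 58.7%. In MOLM1, another EVI1-expressing leukemia line, the CTBP2 list overlapped 60.2% (56.2 to 64.1) of them, against 80.2% of CTBP2 sites with EVI1. The MOLM1 list was used at its full length.

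Per library, 44.7% and 51.3% of EVI1 peaks of dox-treated cells overlapped a CTBP2 peak of either dox library, against 88.5% and 68.0% in untreated cells. Both dox libraries were below both untreated ones, by a mean of 30.3 percentage points (exact permutation test, p = 0.333). Without CTBP2 replicate 1 of untreated cells the gap was 14.6 points, and without replicate 1 of the untreated EVI1 libraries 20.1. With all 8 lists at equal size the shares were 71.5% and 72.3% with dox and 82.5% and 81.3% without, a difference of 10.0 points in the same direction (exact permutation test, p = 0.333). Of CTBP2 peaks, 92.1% and 86.6% overlapped EVI1 with dox and 78.7% and 78.3% without, which is 10.9 points higher (exact permutation test, p = 0.333). At equal list sizes this turned to 4.31 points lower, with dox libraries at 76.8% and 71.9% and untreated ones at 81.3% and 76.1%, which overlap (exact permutation test, p = 0.667).

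**Figure D2:**
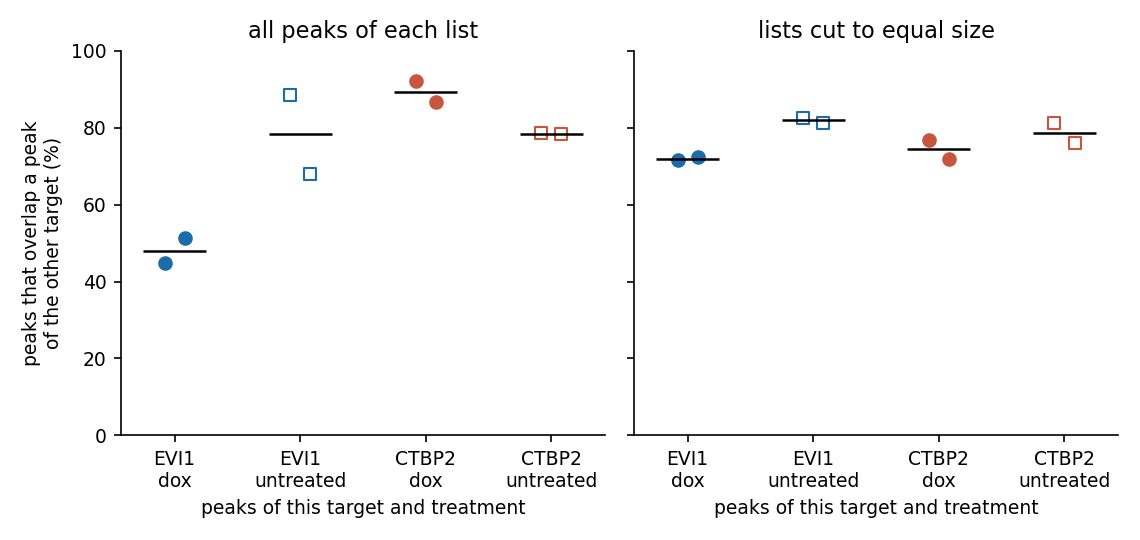
Share of peaks of each library that overlap a peak of the other target under the same treatment (y, percent); each symbol is 1 library, the line is the mean of 2, with all peaks (left) or lists of equal size (right). For EVI1 the dox libraries lie below the untreated ones in both panels, while for CTBP2 they lie above at left and overlap at right.

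Genes were counted by whether they were the nearest protein-coding gene of at least 1 site. Over all 20163 genes, 40.6% had an EVI1 site with CTBP2, 41.6% an EVI1 site without CTBP2 and 2.71% a CTBP2 site without EVI1. These are the values to set beside the counts of the lists, in which genes with long flanks collect more sites. Of 30 blood transcription factor genes, 25 had a site with both proteins, 25 an EVI1 site without CTBP2, 22 both, and 3 a CTBP2 site without EVI1. Their 221 EVI1 sites carried CTBP2 in both libraries in 44.3% (37.9 to 50.9) of cases, and 38.1% of all EVI1 sites did.

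A shared site 183 kb upstream of ZEB2, itself a CTBP-binding repressor, had EVI1 values of 26 and 30.03 and CTBP2 values of 16.4 and 18.5. In an intron of ETV6, an ETS repressor gene, EVI1 was at 32.4 and 22.7 and CTBP2 at 11.9 and 15.8. Upstream of TAL1, a regulator of blood stem cells, EVI1 was at 29.9 and 26.8 and CTBP2 at 10.4 and 11.2. ETV6 also had 6 EVI1 sites without CTBP2, the strongest at 15.0 and 11.4. RUNX3 had 18 such sites among 31, the strongest in its intron at 12.5 and 10.7. The CTBP2 sites without EVI1 in this list were nearest to IRF8 at a distance of 259.7 kb, with CTBP2 at 7.59 and 8.47, in an intron of FLI1 at 3.38 and 8.51, and 59.9 kb from ZEB2 at 3.26 and 5.34.

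Of 17 genes of the CTBP corepressor complex, 11 (64.7%) had a shared site and 13 (76.5%) an EVI1 site without CTBP2. CTBP2 was in both libraries at 39.0% (30.7 to 48.0) of their 118 EVI1 sites. BCOR, which encodes a corepressor of BCL6, had 43 EVI1 sites, 13 of them with CTBP2 in both libraries and 21 with none. The 4 EVI1 sites nearest to CTBP1 all lacked CTBP2. ZNF217, a zinc finger member of CTBP complexes, had a shared site at 15.5 and 16.6 for EVI1 and 9.94 and 12 for CTBP2, and also a CTBP2 site without EVI1 at 6.24 and 6.41.

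Of 20 neutrophil and monocyte genes, 12 had a shared site, 8 an EVI1 site without CTBP2 and none a CTBP2 site without EVI1. The single EVI1 site of MPO, the myeloperoxidase gene, lay 0.905 kb upstream of its TSS, with EVI1 at 33.4 and 34.6 and CTBP2 at 6.02 and 9.71. In untreated cells CTBP2 there was at 27.8 and 17.9. A site in an intron of CSF1R, the receptor of the monocyte growth factor, had EVI1 at 29.3 and 22.5 and CTBP2 at 10.9 and 13.4. The site 0.046 kb upstream of ITGAM, the integrin CD11b gene, had EVI1 at 14.8 and 18.9 and CTBP2 at 13.8 and 15.1. CD68 had 1 EVI1 site, 0.314 kb into the gene, at 9.59 and 7.83, with no CTBP2 peak under dox and 6.55 and 3.36 in untreated cells. Of 14 EVI1 sites nearest to CSF3R, the receptor gene of the neutrophil growth factor, 9 had no CTBP2.

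Of 16 erythroid and megakaryocyte genes, 6 (37.5%) had a shared site and 8 (50.0%) an EVI1 site without CTBP2. Their 44 EVI1 sites had CTBP2 in both libraries in 31.8% (20.0 to 46.6) of cases. Of 15 stem cell and receptor genes, 13 (86.7%) had a shared site and 11 (73.3%) an EVI1 site without CTBP2. CTBP2 was in both libraries at 48.7% (39.8 to 57.7) of their 115 EVI1 sites. The site 12.4 kb upstream of CD34, a stem cell surface marker gene, had EVI1 at 43.0 and 39.1 and CTBP2 at 17.0 and 18.5. In an intron of ANGPT1, CTBP2 without EVI1 was at 6.02 and 18.5. Sites at CSF2RA and IL3RA were left unnamed in values because their region has an identical copy on X and Y.

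In both ribosomal protein gene families, the interval of the share of EVI1 sites with CTBP2 included the 38.1% of all EVI1 sites. In zinc finger genes it lay below that value. Of 88 cytosolic ribosomal protein genes, 34 (38.6%) had a shared site and 43 (48.9%) an EVI1 site without CTBP2, and 33.5% (27.2 to 40.5) of their 188 EVI1 sites had CTBP2 in both libraries. Of 78 mitochondrial ribosomal protein genes, 30 (38.5%) had a shared site and 34 (43.6%) an EVI1 site without CTBP2. CTBP2 was in both libraries at 37.1% (29.1 to 45.9) of their 124 EVI1 sites. Of 516 zinc finger genes with ZNF symbols, 184 (35.7%) had a shared site and 212 (41.1%) an EVI1 site without CTBP2, with CTBP2 at 33.6% (30.4 to 37.1) of 752 EVI1 sites. A site in an intron of ZNF532 had EVI1 at 45.8 and 49.03 and CTBP2 at 9.78 and 13.2.

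The share of EVI1 sites with CTBP2 in both libraries ranged over chromosomes from 32.5% (30.6 to 34.5) on chromosome 19 to 45.7% (42.9 to 48.5) on chromosome 4. Median EVI1 fold enrichment in replicate 1 was 6.86 and 7.27 on these chromosomes. This median was highest on Y, at 8.70, and next on X, at 8.27, where the shares with CTBP2 were 39.1% and 33.7%. Whether the share went with EVI1 strength over chromosomes was not tested.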

How the data were processed

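EVI1 and CTBP2 ChIP-seq was analysed in dox-treated and untreated MUTZ3 cells with pCW-4xPLDLS, 2 libraries per target and treatment, grouped by the sample labels. The authors aligned reads to hg19 and called narrow peaks for each library against its matched input with default settings. The submitters' processing notes name Bowtie 1.1.1, MACS2 2.1.2, bcl2fastq 1.8.4 and deepTools 3.5.1. The deposited lists give the fold enrichment at each summit as a ratio over local background, and −log10 p and −log10 q values from the authors' peak caller. The deposited display score was not used. No read counts or depths are given, so depth is unknown and differential binding on reads was not run.

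Peaks on chromosomes 1 to 22, X and Y of a target were merged, an interval with peaks of both libraries was a site, and a partner peak overlapped it by at least 1 bp. Genes and TSSs came from GENCODE 44 lifted to GRCh37 (20163 protein-coding genes). Shares carry 95% Wilson intervals for counting error only. Library values were compared by exact two-sided permutation, whose smallest p is 0.333. The 8 sites with the best mean rank of fold enrichment in each class, and up to 4 genes per list and class, were named. The members and gene lists were chosen with earlier results of these data known. A list of proteins with PLDLS motifs was not analysed here. A few sites and genes that meet the naming rule are not reported here. Overlap counts were checked with bedtools 2.31.1 and tested on simulated data of 20000 sites, where 40% and 35% were recovered as 40.3% and 34.8%. Simulated sites had equal width and even spacing, so this checked the counting only. It could not show effects of site width or list length. Python 3.11.15, numpy 2.4.6, pandas 2.3.3, scipy 1.17.1, pysam 0.24.0 and matplotlib 3.10.9 were used. Alternatives were other thresholds, overlaps, list sizes, windows and TSS sets, and leaving out each library.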

Additional observations from a re-analysis of the deposited data

Results flagged for a closer look

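The share of EVI1 peaks with a CTBP2 peak was lower with dox than without in both EVI1 libraries, with a mean difference of -30.3 percentage points, while the share of CTBP2 peaks with an EVI1 peak was higher in both CTBP2 libraries, by 10.9 points. The targets were picked out because all libraries of one moved opposite to all libraries of the other. The difference between them was not tested. The CTBP2 lists held 24349 and 23630 peaks with dox against 61338 and 56017 without, and the EVI1 lists 52856 and 46848 against 50453 and 70763. With all 8 lists at equal size the differences were -10.0 and -4.31 points, both in the same direction.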

How the results depend on the processing

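Of 170 alternative values, 86 were counted as the same, 81 as moved and 3 as reversed, and the cause was not tested. For most results, same meant within the standard deviation between libraries or library pairs. For numbers of sites it meant within a fixed ratio, and for peak numbers and the dox comparison the same direction only. Values of the dox difference in EVI1 peaks (-30.3 points) counted as the same thus ran from -10.0 to -41.0, while GATAAG moved from 1.473 to 1.479 points. The share of EVI1 sites with CTBP2 in both libraries (38.1%) was 30.4% with a −log10 q of at least 5, 27.9% with a fold enrichment of at least 5, 33.6% with summits within 200 bp, 59.9% with lists of equal size and 25.5% with every peak of either library, and 27.8% to 50.8% when 1 library was left out. The share with no CTBP2 (41.0%) was 49.1%, 51.1%, 20.3% at equal size, 58.1% with every peak and 62.3% against CTBP2 sites of both libraries, and 48.7% to 55.3% with 1 library left out. The share of CTBP2 sites with EVI1 in both (91.8%) was 86.8% at 5-fold, 78.6% by summits, 71.6% at equal size and 76.7% with every peak, and 78.7% to 94.5% with 1 library left out. The share with no EVI1 (3.64%) was 10.1% by summits, 14.1% at equal size, 14.2% with every peak and 8.01% against EVI1 sites of both libraries, and 5.53% to 13.4% with 1 library left out. Leaving out a library changed what the shares above measure. Sites of its target became the peaks of the remaining library, and sites of the other target needed a peak in that library only. EVI1 sites numbered 23565 at 5-fold and 18268 at equal size, and CTBP2 sites 10283 at the q threshold and 7588 at 5-fold.

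Mean rho between the targets (0.466) was 0.402 at 5-fold and 0.389 for EVI1 replicate 1 with CTBP2 replicate 2, and the summit distance (55.5 bp) was 43.5 bp at 5-fold, 47.5 bp at the q threshold, 60 bp for that pair and 52 bp for the opposite pair, and 53 to 59 bp with 1 library left out. The TSS share of EVI1 sites with CTBP2 was 23.7% within 500 bp, 37.4% within 5 kb, 35.2% with TSSs of all genes, 20.5% at 5-fold and 25.1% at the q threshold, and 26 to 29.9% with 1 library left out. Without CTBP2 it was 16.0%, 32.2%, 26.9%, 27.7% and 26.1%, and 15.6% to 24.04% with 1 library left out. Their difference was 5.25 points within 5 kb, reversed to -7.19 at 5-fold and -0.98 at the q threshold, and was 1.98 to 11.5 with 1 library left out. For CTBP2 sites with EVI1 it was 22.8%, 37.9% and 35.4% for the 3 TSS settings and 20.2% at 5-fold, for those without 12.5% within 5 kb, and their difference was 28.6 points with TSSs of all genes and 13.2 at 5-fold. With windows of 50 and 200 bp on either side, the differences were 3.07 and 5.70 points for CAGGAAG, 0.823 and 1.81 for GATAAG, 9.51 and 2.55 for CAGGTG, and -12.5 and -31.6 for GGGCGG. With summits of replicate 2 alone they were 5.65, 1.48, 7.34 and -21.8. The dox difference in EVI1 peaks (-30.3 points) was -14.6 to -41.0 with 1 library left out, and that in CTBP2 peaks reversed to -4.31 at equal size. The differences between classes, the leave-out values of the dox comparison, its CTBP2 alternatives and summits of replicate 2 were added after the data were seen.

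Replicate numbers are shared between groups only as numbers, and with 2 pairs the exact sign-flip test cannot go below p = 0.5. The replicate block took the peaks of each library against the same-numbered library of the other target, as a mean of 2 libraries. By this measure 61.02% of EVI1 peaks had no CTBP2 peak, 86.0% of CTBP2 peaks had an EVI1 peak and 13.97% had none. These are shares of peaks, so they differ in unit from the shares of sites above. The dox difference in EVI1 peaks was -26.3 points. Unknown depth, a single input per treatment and different antibodies limit all comparisons between targets.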

Other observations

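Genes with the most sites were listed after the values were seen, and large gene-poor flanks collect sites. TMEM121 was the nearest gene of 75 EVI1 sites, 26 with CTBP2 in both libraries and 32 with none. ID2, an inhibitor of E-box factors, had 45 EVI1 sites, of which 18 had CTBP2 in both libraries and 19 had none. Among CTBP2 sites without EVI1, 5 were nearest to SPACA7, 4 to OR4C46, which had no EVI1 site, and 3 to BCL11A, a zinc finger repressor of fetal globin genes.

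In unmodified MUTZ3 cells, the CTBP2 list overlapped 37.2% (33.4 to 41.2) of CTBP2 sites without EVI1 and the EVI1 list 14.4% (11.8 to 17.5). At CTBP2 sites with EVI1 these shares were 57.0% (56.2 to 57.8) and 66.7% (66 to 67.5). At EVI1 sites without CTBP2 they were 8.64% and 21.5%. These lists were not cut to equal size, and the paper reports far fewer CTBP2 peaks in MUTZ3 than in MOLM1. Shares in unmodified MUTZ3 cells therefore cannot be compared with those in MOLM1 above.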
